A study of Mus musculus with 22 samples.

Results

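Collagens are the chains of the proteins that give tissues their tensile scaffold. They were taken here as every protein-coding row whose symbol is Col, a chain type number, the letter a and a chain number, which gave 44 genes of 24911 rows in the deposited files, 20674 of them protein-coding. Of the 44, 11 were fibrillar collagens, 6 were the basement membrane chains of collagen IV and 27 belonged to other classes. The other classes were 9 fibril-associated collagens with interrupted triple helices (FACIT), 6 collagen VI chains, 4 transmembrane collagens, 3 short-chain network collagens (Col8a1, Col8a2, Col10a1), 2 multiplexins (Col15a1, Col18a1) and 3 further genes (Col7a1, Col26a1, Col28a1). The rule used symbols only and no measured value, though it was set with earlier results of these data known.

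Poly(A) RNA was sequenced from mouse tissues and cells in 22 libraries, each the only library of its label. Tissue libraries were back skin, putamen, medulla oblongata and sensorimotor cortex. The 18 immune libraries were B cells, CD4 T cells and basophils. B-cell cultures were labelled as activated with aCD40+IL4, aBCD180, LPS, LPS+a-d-dextran, LPS+IL21 and LPS+IL4. They stood beside splenic B cells and CH12, a B-lymphoma line (clone bc5). The mature B cells came from C57BL/6J spleen by negative selection. The CD4 T cells were Tfh (follicular helper), Tfr (follicular regulatory), non-Tfh and CD4+ cells. Tfr cells were sorted as CD44+, CXCR5+, PD1+ and CD25+. The non-Tfh cells were labelled activated and sorted as CD44+ and CXCR5-, PD1- and CD25-. The Tfh labels give no sort markers. Tfh, Tfr and non-Tfh libraries are called sorted activated below, though of these only the non-Tfh labels say activated. Tfh, Tfr, non-Tfh and CD4+ cells each had a library marked MUT and an unmarked one, and the mutated gene is not given in the labels. A further CD4+ library was activated with ConA, a T-cell mitogen. Strain, age and sex are not given for the other samples, and the labels do not tie libraries to separate animals. A p-value here therefore measures how far the samples used spread, not how far animals differ. For brain against immune cells and B against CD4 T cells, that spread lies between regions, cell types and cultures. In the fits of the CD4 T populations with and without MUT, it is what remains after the terms for population and MUT. That is how far the MUT difference varied between populations, with technical variation included.

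Fibrillar collagens assemble into the banded fibrils of dermis, tendon and bone, mainly from type I and type III chains made by fibroblasts. Collagen IV forms the sheet of the basement membrane under epithelia and around vessels, and collagen VI forms beaded filaments between fibres and cells. FACIT collagens sit on fibril surfaces, while transmembrane collagens stay in the cell membrane with their triple helices outside. Chains are hydroxylated, folded with the chaperone Hsp47 (Serpinh1), secreted, trimmed and cross-linked.

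The promoters of 4 genes on which the results below turn are shown first, as the 250 bases before each RefSeq start (GRCm38.p6), read along the gene's strand. Col3a1 was the most abundant collagen of skin, Col25a1 had the largest brain to immune fold change, and Col5a3 and Col24a1 were present in Tfh and Tfr cells. The windows lie at chr1:45311288-45311537 (plus strand) for Col3a1, chr3:130180595-130180844 (plus) for Col25a1, chr9:20815068-20815317 (minus) for Col5a3 and chr3:145292222-145292471 (plus) for Col24a1. For Col25a1 and Col5a3 the start used for the window differs from the outer edge of the gene. The whole Col25a1 window lies inside the gene's span, which begins at 130180358. The Col5a3 window reaches into its gene, whose span ends at 20815117. Capitals mark 3 motifs searched on both strands. The CCAAT box was read as CCAAT. For the core promoter's TATA box the letters were TATAAA. For the GC box, bound by Sp1, they were GGGCGG. In the printed windows no match overlapped another.
Col3a1: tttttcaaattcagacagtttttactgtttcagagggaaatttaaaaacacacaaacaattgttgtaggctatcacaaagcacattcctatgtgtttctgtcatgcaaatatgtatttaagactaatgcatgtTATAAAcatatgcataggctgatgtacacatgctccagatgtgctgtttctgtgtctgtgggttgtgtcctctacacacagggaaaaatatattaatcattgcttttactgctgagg
Col25a1: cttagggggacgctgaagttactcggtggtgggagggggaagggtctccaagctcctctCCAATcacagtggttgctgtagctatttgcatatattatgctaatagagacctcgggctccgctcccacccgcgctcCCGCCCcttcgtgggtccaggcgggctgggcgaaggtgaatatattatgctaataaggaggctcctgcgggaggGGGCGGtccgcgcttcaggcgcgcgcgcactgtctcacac
Col5a3: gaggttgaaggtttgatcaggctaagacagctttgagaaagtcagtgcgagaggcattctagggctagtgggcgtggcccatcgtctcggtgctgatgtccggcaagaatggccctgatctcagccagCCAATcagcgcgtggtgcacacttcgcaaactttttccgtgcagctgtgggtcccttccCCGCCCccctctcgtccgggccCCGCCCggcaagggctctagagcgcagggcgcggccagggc
Col24a1: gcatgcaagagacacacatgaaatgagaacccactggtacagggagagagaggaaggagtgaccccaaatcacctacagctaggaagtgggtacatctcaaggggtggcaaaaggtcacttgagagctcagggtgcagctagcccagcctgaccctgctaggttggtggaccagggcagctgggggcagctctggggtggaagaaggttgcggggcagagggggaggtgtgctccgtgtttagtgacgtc
In the Col3a1 window TATAAA lay 117 to 112 bases before the start. Col25a1 and Col5a3 each held 1 CCAAT and 2 GGGCGG matches, while Col24a1 held none of the 3 motifs. Of the 35 collagens with a window in the table, 12 held CCAAT, 5 TATAAA and 21 GGGCGG in their first window. Among all 32851 windows of that length, 33.8% held CCAAT, 12.4% TATAAA and 32.7% GGGCGG. These matches describe letters only.

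All values below are TPM, a level scaled to transcript length and to the library's total, unless said otherwise. Every collagen was above 0 in at least 1 library, 35 reached 1 TPM in some library and 9 stayed below 1 TPM in all 22. Those 9 were Col2a1, Col4a3, Col4a4, Col4a6, Col6a5, Col9a1, Col10a1, Col22a1 and Col24a1. A level of at least 1 TPM was reached by 28 collagens in back skin, 28 in a brain region and 15 in an immune library. Among the 20145 protein-coding genes above 0 in any library, the shares at that level were 65.6% in back skin, 73.0% in a brain region and 66.6% in an immune library. At least 10 TPM was reached by 17 collagens in skin, 8 in brain and 1, Col11a2, in immune cells, beside 41.2%, 52.6% and 53.1% of the 20145 genes in the same order. The libraries held between 30.8 M and 147.9 M expected counts, with a median of 46.2 M. In these bulk samples fewer cells of a type and less RNA per cell cannot be told apart.

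**Figure D1:**
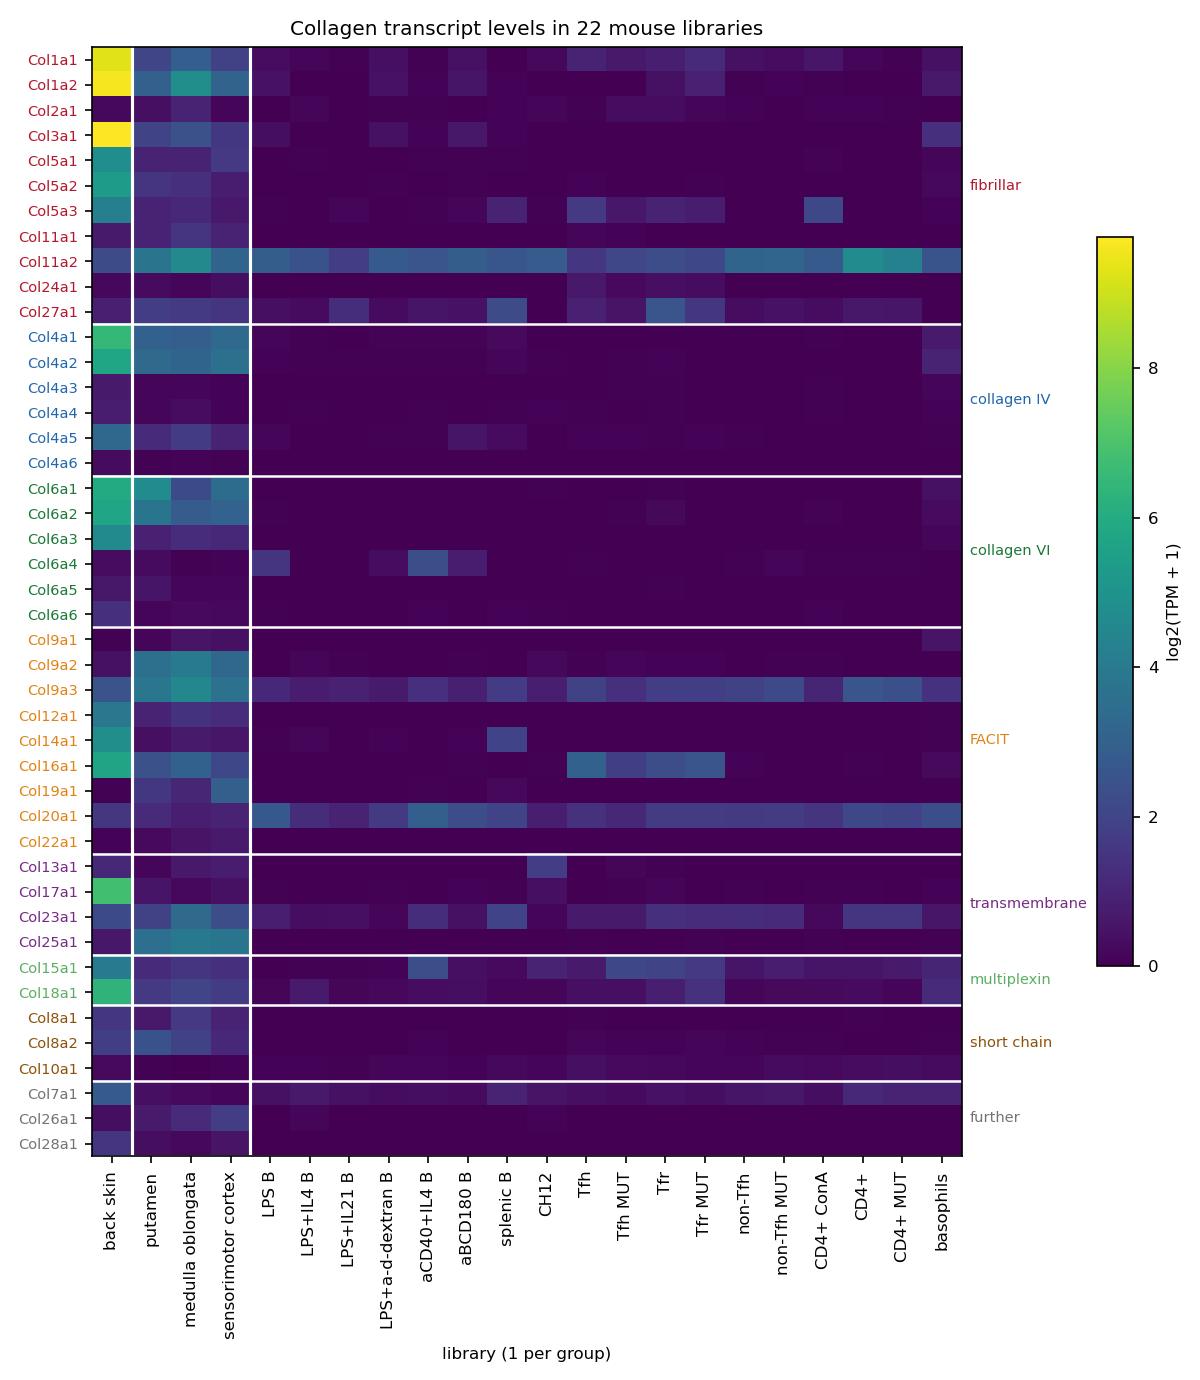
Heat map of log2(TPM + 1) for the 44 collagens (rows, grouped and coloured by family) in 22 libraries (columns, 1 library each), with white lines between skin, brain and immune libraries. Col1a1, Col1a2 and Col3a1 are brightest in back skin, Col9a2, Col9a3 and Col25a1 stand out in the 3 brain columns, and Col11a2 runs across all immune columns.

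Summed over all 44 genes, collagen transcripts came to 2988 TPM in back skin, 128 to 182 TPM in the 3 brain regions and 6.85 to 38.1 TPM in the immune libraries (median 17.9). The classes divided this sum differently. Fibrillar chains made up 79.4% of the collagen TPM in skin, 20.9% to 38.2% in the brain regions and a median of 50.1% in immune libraries. In several immune libraries that share was mostly a single gene, Col11a2. It gave 25.0 of 25.7 fibrillar TPM in CD4+ and 6.40 of 7.75 in LPS B, but 1.92 of 6.61 in Tfh. Collagen IV made up 5.09% in skin, 9.43% to 16.5% in brain and a median of 0.88% in immune libraries. The other classes together gave 15.5% in skin and 52.4% to 65.7% in brain. The skin and brain sums of all 3 classes lay above every immune library.

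**Figure D2:**
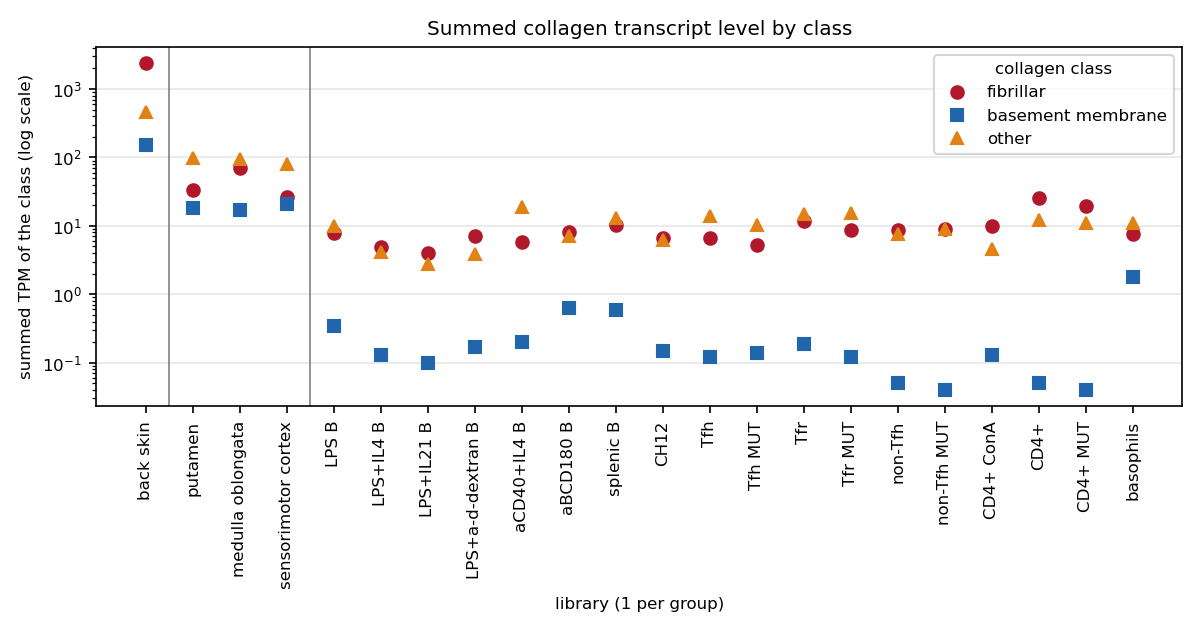
Summed TPM of the fibrillar, basement membrane and other collagens in each library (log axis, 1 point per class and library, no replicates). Fibrillar collagens lead in back skin at 2374 TPM, other classes lead in the 3 brain regions, and basement membrane collagens stay at or below 1.78 TPM in the immune libraries.

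Skin was the library with the highest level for 25 of the 44 collagens, while 11.3% of the 20145 genes had their highest level there. These were 6 of the 11 fibrillar chains, all 6 collagen IV chains and 13 of the other 27. Back skin was a single library, so a rule of size took the place of a test: a log2(TPM + 1) at least 3 away from each of the other 21 libraries, with at least 1 TPM on the higher side. By this rule 9 of the 35 collagens that reached 1 TPM anywhere were higher in skin and 0 were lower, beside 3.34% higher and 0.0422% lower among 16570 genes.

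The major fibrillar chains led. Col3a1 (chr1:45311538-45349706, plus strand, GRCm38), the type III chain of pliable tissues, had 861 TPM in skin, against 3.03 TPM in putamen, 4.30 TPM in medulla oblongata and 2.02 TPM in sensorimotor cortex. Its 121135 reads give a 95% exact Poisson interval of 856 to 866 TPM, which covers counting error only. Col1a2, the second chain of type I collagen, had 781 TPM in skin, and Col1a1, which supplies its other chains, had 642 TPM. The highest other library for both was medulla oblongata, at 27.0 TPM of Col1a2 and 6.58 TPM of Col1a1. The Col1a1 to Col1a2 ratio of TPM was 0.821 in skin, 0.447 in putamen, 0.244 in medulla oblongata and 0.345 in sensorimotor cortex, so Col1a2 was the more abundant message in all 4 tissues. Among all genes of skin, Col3a1 ranked 206 by TPM, Col1a2 218 and Col1a1 253.

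The type V chains, which regulate fibril diameter, were the next fibrillar members of skin. Col5a2 had 40.2 TPM, Col5a1 26.3 TPM and Col5a3 17.4 TPM in skin, while no brain region exceeded 2.05 TPM of any of them. Col5a2 lies tail to tail with Col3a1 on chromosome 1, with 24624 bases between them, and their skin levels differed widely (40.2 against 861 TPM). Col2a1 and Col11a1, chains of cartilage fibrils, were at 0.17 and 0.65 TPM in skin. Col24a1 and Col27a1 were at 0.15 and 0.83 TPM there.

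Col17a1, a hemidesmosome collagen that anchors basal keratinocytes, had 110 TPM in skin and at most 0.45 TPM in the other 21 libraries. Col7a1, which forms the anchoring fibrils below the epidermis, had 5.79 TPM in skin and at most 1.14 TPM elsewhere. Col18a1, the multiplexin that yields endostatin, had 79.7 TPM in skin and at most 3.15 TPM elsewhere, and its relative Col15a1 had 15.5 TPM in skin and at most 4.05 TPM elsewhere. Of the FACIT genes Col16a1 had 51.0 TPM, Col14a1 26.9 TPM and Col12a1 13.7 TPM in skin. The collagen VI chains Col6a1, Col6a2 and Col6a3 had 61.3, 53.4 and 23.8 TPM, while Col6a6 had 1.48, Col6a5 0.54 and Col6a4 0.26 TPM. Of these members Col17a1, Col18a1 and Col6a3 were past the size rule, with Col1a1, Col1a2, Col3a1, Col5a1, Col5a2 and Col4a1.

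Skin held RNA of several cell types. The 8 fibroblast markers summed to 1165 TPM in skin (Dcn 741 TPM), the 8 keratinocyte markers to 9082 TPM, the 7 skeletal muscle markers to 5923 TPM and the 6 adipocyte markers to 6616 TPM. In the brain regions the fibroblast markers summed to 45.6 to 70.3 TPM and the keratinocyte markers to 20.5 to 58.9 TPM. The part of these cell types in the skin values was not tested.

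Other genes of the collagen pathway were read in skin by the same size rule, which 3.34% of 16570 genes met on the higher side. It was met by 2 of 12 procollagen cleavage and cross-linking genes that reached 1 TPM, the enhancer of C-propeptide cleavage Pcolce (113 TPM in skin) and the cross-linking oxidase Lox (22.5 TPM). Of 12 fibril-associated proteoglycans and glycoproteins, 6 met it (Dcn, Lum, Bgn, Ogn, Postn and Tnxb), with decorin (Dcn) at 741 TPM. Of 10 degradation and uptake genes, 3 met it (Mmp2, Mmp3 and Ctsk), and cathepsin K (Ctsk) had 194 TPM. None of 18 synthesis genes, 15 basement membrane partners or 10 collagen receptors met it. Serpinh1 had 154 TPM in skin and 17.7 to 27.4 TPM in brain, and it did not exceed 1.01 TPM in immune libraries.

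Brain had fewer transcripts of fibril-forming chains, and 7 collagens were among the 10 most abundant in each of the 3 regions. They were Col25a1, Col9a2, Col9a3, Col11a2, Col1a2, Col4a1 and Col4a2, of which Col1a2, Col4a1 and Col4a2 were also in the skin's 10. Col25a1 (chr3:130180358-130599884, plus strand), a transmembrane collagen of neurons, had 10.9 TPM in putamen, 14.3 TPM in medulla oblongata and 12.7 TPM in sensorimotor cortex, against 0.53 TPM in skin. Col9a2, a chain of FACIT collagen IX known from cartilage, had 11.3, 14.6 and 8.91 TPM in the same regions, against 0.35 TPM in skin. Its partner chain Col9a3 had 13.3, 21.6 and 11.8 TPM, against 4.70 TPM in skin, and the third chain Col9a1 stayed at 0.13 to 0.44 TPM in brain. All 3 regions thus lay above the skin library for these genes.

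Of the 44 collagens, 10 were higher in all 3 brain regions than in skin, beside 46.1% of the 20145 genes. Besides Col25a1 and the 3 collagen IX chains they were Col11a1, Col11a2, Col19a1, Col22a1, Col26a1 and Col27a1. Col11a2, a fibrillar chain of type XI collagen, had 12.4 TPM in putamen, 23.0 TPM in medulla oblongata and 7.88 TPM in sensorimotor cortex, against 3.68 TPM in skin. Its partner Col11a1 had 0.92 to 1.76 TPM in brain.

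**Figure D3:**
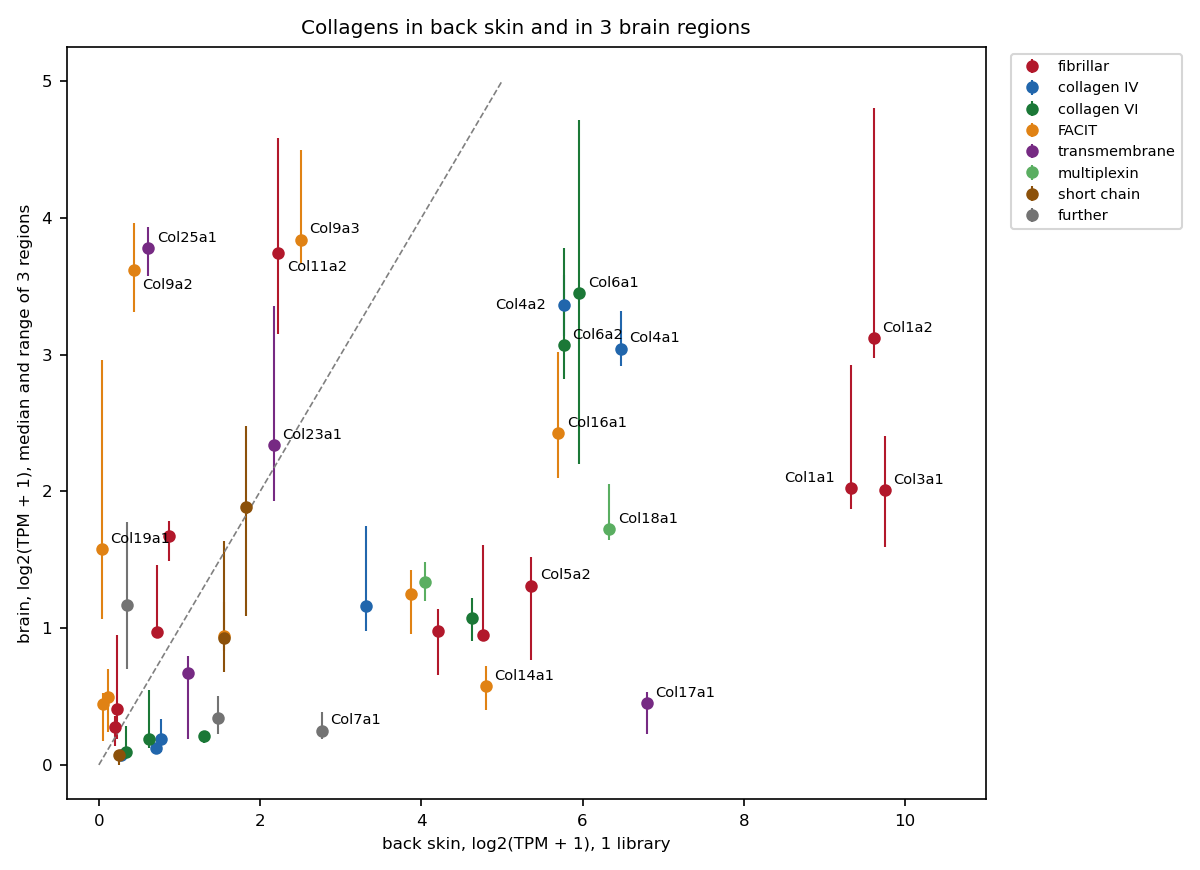
Collagens by their log2(TPM + 1) in back skin (x axis, 1 library) and in brain (y axis, median of 3 regions, with bars from the lowest to the highest region), coloured by family, with a dashed line of equal level. Col3a1, Col1a1, Col1a2 and Col17a1 lie far to the right, and Col25a1, Col9a2, Col9a3 and Col11a2 lie above the line.

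The brain regions differed from one another in 4 collagens, by a rule of size set at 1 in log2(TPM + 1) from both other regions with at least 1 TPM on the higher side (28 collagens could meet it). Putamen was higher in Col6a1, with 25.2 TPM, against 3.59 TPM in medulla oblongata and 9.93 TPM in sensorimotor cortex. Of 14697 genes, 4.89% were higher and 2.36% lower in putamen by this rule. Col6a2, whose product joins that of Col6a1 in the collagen VI trimer, had 12.8, 6.07 and 7.40 TPM in the same order, which made the Col6a1 to Col6a2 ratio 1.98 in putamen, 0.591 in medulla oblongata and 1.34 in sensorimotor cortex. Medulla oblongata was lower in Col6a1 (3.8% of genes were lower there) and higher in Col1a2 and Col23a1 (5.47% of genes were higher there). Col1a2 had 27.0 TPM in medulla oblongata, against 6.85 TPM in putamen and 7.70 TPM in sensorimotor cortex, and the transmembrane collagen Col23a1 had 9.23 TPM, against 2.81 and 4.05 TPM. Sensorimotor cortex was higher in Col19a1, a FACIT collagen of some interneurons, with 6.80 TPM, against 1.99 TPM in putamen and 1.09 TPM in medulla oblongata (2.69% of genes were higher and 1.93% lower in this region).

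Markers of vessel and meningeal cells were present in the brain libraries. The fibroblast markers summed to 70.3 TPM in medulla oblongata, 56.1 TPM in putamen and 45.6 TPM in sensorimotor cortex, and Dcn had 24.8, 12.4 and 9.45 TPM in that order. The 8 mural cell markers summed to 107 to 121 TPM, the 8 endothelial ones to 44.2 to 47.6 TPM, the 8 leptomeningeal ones to 113 to 200 TPM and the 7 choroid plexus ones to 20.1 to 41.3 TPM. Of the leptomeningeal sums, Igfbp2 alone gave 56.5 TPM in putamen, 112 TPM in medulla oblongata and 147 TPM in sensorimotor cortex. Such sums were not particular to brain. The leptomeningeal markers summed to 319 TPM in skin, and the endothelial ones to a median of 92.1 TPM in immune libraries. The 7 skeletal muscle markers were also present in the brain libraries. They summed to 207 TPM in putamen, 126 TPM in medulla oblongata and 153 TPM in sensorimotor cortex, against a median of 17.7 TPM in immune libraries. The part of cells with these markers in the differences between regions was not tested, and each region was 1 library.

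The 6 collagen IV chains are encoded as 3 head to head pairs that share a promoter region. Col4a1 and Col4a2 overlap by 85 bases at their starts on chromosome 8. Col4a1 had 88.2 TPM in skin, and 7.25 TPM in putamen, 6.54 TPM in medulla oblongata and 9.0 TPM in sensorimotor cortex. Col4a2 had 53.5 TPM in skin, and 9.29, 7.81 and 10.97 TPM in these brain regions. The Col4a1 to Col4a2 ratio was 1.65 in skin and 0.780 to 0.837 in brain. Col4a3 and Col4a4, the chains of kidney glomerulus and cochlea, overlap by 114 bases at their starts on chromosome 1. They had 0.64 and 0.71 TPM in skin and at most 0.11 and 0.26 TPM in brain. On the X chromosome 1274 bases separate Col4a5 from Col4a6. Col4a5 had 8.94 TPM in skin and 0.97 to 2.35 TPM in brain, whereas Col4a6 had 0.21 TPM in skin and 0.04 to 0.07 TPM in brain. The ratio of Col4a5 to Col4a6 was 42.6 in skin and 19.4 to 33.6 in the brain regions. The strandedness of the libraries is not stated, so reads in the 22 exonic bases that Col4a1 and Col4a2 share cannot be told apart.

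Brain regions were compared with immune cells by edgeR's quasi-likelihood test on expected counts, with the 3 regions and the 18 immune libraries as samples and adjustment over 15927 genes. Of 43 collagens tested (Col4a6 was too low), 34 passed, 31 of them higher in brain and 3 lower, beside 62.9% of all genes (33.9% higher and 29.0% lower). The median log2 fold change was 3.23 over the 43 collagens and -0.04 over all genes. The count filter asked for enough reads in only a few libraries, so some collagens entered through the brain regions alone. Col28a1, for example, had 20, 14 and 36 reads in putamen, medulla oblongata and sensorimotor cortex and at most 7 in an immune library. The split of calls and the median over collagens therefore follow in part from the filter. By family the higher calls were 7 of 11 fibrillar chains, 5 of 5 collagen IV chains, 6 of 9 FACIT, 5 of 6 collagen VI chains, 3 of 4 transmembrane collagens, 1 of 2 multiplexins, 2 of 3 short-chain and 2 of 3 further collagens. For 26 of the 44 genes the lowest brain region lay above the highest immune library, as for 26.2% of the 20145 genes, and for 0 the lowest immune library lay above the highest brain region, as for 9.95% of those genes. Back skin lay above the highest immune library for 33 of the 44, as for 21.7% of those genes.

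Col25a1 had the largest difference. Against its 10.9 to 14.3 TPM in brain, the immune libraries had 0 to 0.05 TPM (median 0.005), and the log2 fold change was 9.75 ± 0.97 (SE, edgeR adjusted p = 2.1e-08). Col9a2 followed a similar pattern, with 8.91 to 14.6 TPM in brain and 0 to 0.15 TPM in immune libraries (median 0.03). Its log2 fold change was 7.64 ± 0.74 (edgeR adjusted p = 1.3e-08). Col6a1 had 3.59 to 25.2 TPM in brain and 0 to 0.34 TPM in immune libraries, a log2 fold change of 8.27 ± 1.17. Collagen IV was near 0 in lymphocytes: Col4a1 had 6.54 to 9.0 TPM in brain and 0 to 0.64 TPM in immune libraries (median 0.01), with basophils highest. Its log2 fold change was 6.36 ± 1.25 and that of Col4a2 6.34 ± 1.09.

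Fibrillar chains differed less evenly. Col1a2 had a log2 fold change of 5.90 ± 1.18 and Col1a1 of 3.23 ± 0.73 in brain over immune cells (edgeR adjusted p = 0.000196 and 0.000604). Col1a1 had 2.66 to 6.58 TPM in brain and 0.02 to 1.32 TPM in immune libraries (median 0.29). Col3a1 had 2.02 to 4.30 TPM in brain, against 0 to 1.52 TPM in immune libraries (median 0, highest in basophils), and its adjusted p of 0.047 by edgeR passed in 8 of the 26 alternatives tried, where it ran from 9.9e-08 to 0.137. The call on Col9a1 (log2 fold change 3.19 ± 1.38 by edgeR) held in 4 of 25 alternatives and that on Col4a3 (1.63 ± 0.70) in 11 of 26. The 9 members that did not pass were Col5a3, Col6a4, Col11a2, Col13a1, Col14a1, Col15a1, Col16a1, Col24a1 and Col27a1. Among them Col11a2 averaged 14.4 ± 7.73 TPM in brain and 6.92 ± 5.79 TPM in immune cells (SD, n = 3 and 18, edgeR adjusted p = 0.331). Col16a1 averaged 4.93 ± 1.97 TPM in brain and 1.06 ± 2.16 TPM in immune cells, where the highest library reached 7.25 TPM.

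The 3 collagens lower in brain than in immune cells were at low levels throughout. Col20a1, a FACIT gene, had 0.78 to 1.28 TPM in brain, against 0.76 to 6.63 TPM in immune libraries (median 2.27), and the groups overlapped. Its log2 fold change was -1.75 ± 0.61 (edgeR adjusted p = 0.017), and the call was lost without medulla oblongata or sensorimotor cortex, or by limma. Col7a1 had 0.14 to 0.31 TPM in brain and 0.21 to 1.14 TPM in immune libraries, and its call held in 15 of 26 alternatives. Col10a1, the collagen of hypertrophic cartilage, had 0 to 0.08 TPM in brain and 0.03 to 0.31 TPM in immune libraries, and its call was lost without putamen or medulla oblongata. It shares 18 exonic bases with Nt5dc1 on the opposite strand, and Nt5dc1 had 0.77 to 2.16 TPM in brain and 16.4 to 71.9 TPM in immune libraries, so reads of these genes may be mixed. That was not tested.

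**Figure D4:**
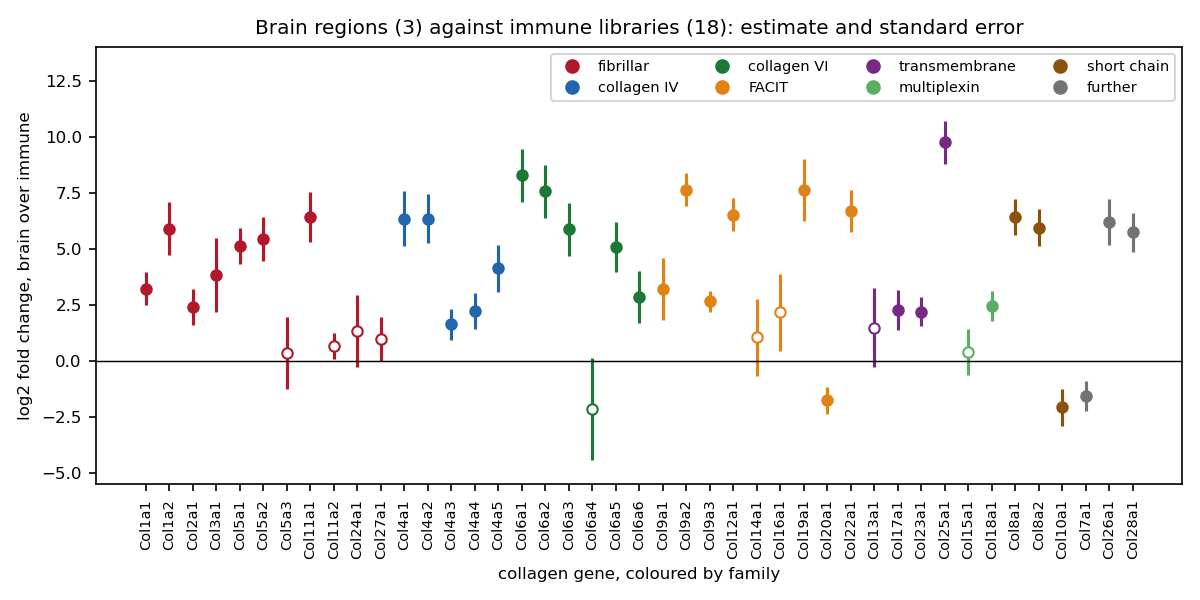
Log2 fold change of 43 collagens in brain (3 regions) over immune cells (18 libraries) by edgeR, with standard errors as bars and families by colour. Filled points passed an adjusted p of 0.05 and open points did not. Col25a1 is highest at 9.75, and Col10a1, Col20a1 and Col7a1 are the filled points below 0.

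Other genes of the pathway were compared in the same fit, in which 33.9% of all genes were higher in brain and 29.0% lower. Genes near 0 in immune cells could pass its count filter through the brain regions alone and could then hardly be called lower. The counts of higher and lower genes below therefore follow in part from the filter. Of 15 basement membrane partners 9 were higher and 0 lower by edgeR, among them the laminin chains Lama2 (4.31 ± 0.11 TPM in brain against 0.006 ± 0.012 TPM in immune cells, SD) and Lamb2 (14.3 ± 2.77 against 0.104 ± 0.099 TPM). Of 12 fibril-associated proteoglycans and glycoproteins 10 were higher and 0 lower. The matricellular protein Sparc was at 274 TPM in putamen, 1495 TPM in medulla oblongata and 165 TPM in sensorimotor cortex, against 0.04 to 2.87 TPM in immune libraries. Among 13 cleavage and cross-linking genes 9 were higher and 1 lower, and among 9 degradation and uptake genes 6 were higher and 0 lower. Synthesis genes went both ways, with 8 of 18 higher and 4 lower. The chaperone Serpinh1 had 22.5 ± 4.84 TPM in brain and 0.119 ± 0.233 TPM in immune cells, whereas Ppib, a prolyl isomerase of the endoplasmic reticulum, had 211 ± 13.6 TPM in brain and 433 ± 93.9 TPM in immune cells (SD, n = 3 and 18). Of 10 collagen receptors 3 were higher (Itga11, Ddr1 and Ddr2) and 3 lower (Itga10, Itgb1 and Cd44).

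In immune cells the collagens present were few and differed by population. Col11a2 (chr17:34038919-34066684, plus strand) was the only one of the 44 at 1 TPM or more in all 18 immune libraries, a level that 43.4% of the 20145 genes held in all of them. It ran from 1.92 to 25.0 TPM there, with a median of 5.45. The gene Rxrb ends 1037 bases upstream on the same strand and had 43.7 to 95.6 TPM in the immune libraries, and whether its reads enter Col11a2 was not tested. Col9a3 reached 1 TPM in 13 immune libraries (0.65 to 4.99 TPM) and Col20a1 in 16. Col9a3 shares 234 exonic bases with Tcfl5 on the opposite strand, and Tcfl5 had at most 0.10 TPM in immune libraries. Ogfr ends 1953 bases upstream of Col9a3 with 57.0 to 166 TPM in immune libraries, and Arfgap1 ends 4008 bases upstream of Col20a1 with 28.1 to 60.3 TPM. The part of these neighbours was not tested.

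B cells and CD4 T cells were compared over 7 primary B and 9 CD4 T libraries. Of 11 collagens tested 0 were higher and 2 lower in B cells by edgeR, beside 46.4% of 12437 genes called, 23.9% higher and 22.5% lower. Col9a3 had 1.15 ± 0.60 TPM in B cells and 2.83 ± 1.25 TPM in T cells (SD, n = 7 and 9), a log2 fold change of -1.28 ± 0.35 (edgeR adjusted p = 0.0082), and the call held in all 21 alternatives. The 2 groups overlapped, with 0.65 to 2.33 TPM in B cells and 1.00 to 4.99 TPM in T cells. Col10a1 had 0.03 to 0.17 TPM in B cells and 0.09 to 0.31 TPM in T cells (edgeR adjusted p = 0.014). Its neighbour on the other strand, Nt5dc1, had 16.5 to 33.4 TPM in the B libraries and 22.6 to 71.9 TPM in the T libraries. Of 8 collagen receptors tested, 1 was higher in B cells (Mrc1, with 0.13 to 22.1 TPM against 0.02 to 0.21 TPM) and 4 were lower (Itga1, Itga2, Itgb1 and Ddr1). Macrophage markers summed to 261 TPM in splenic B cells and 4.77 to 18.7 TPM in the B-cell cultures. The part of cells with these markers in the Mrc1 values was not tested. Ddr1, a receptor kinase for fibrillar collagen, had 0.07 to 2.19 TPM in B cells and 2.71 to 33.9 TPM in T cells.

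Single B-cell libraries stood apart for some members. Splenic B cells, set against 6 activated cultures by the size rule of 1, were higher in Col14a1 and Col27a1 and in none lower, of 8 collagens that could meet the rule (6.41% of 11924 genes were higher and 2.57% lower). Col14a1 had 2.93 TPM in splenic B cells (95% exact Poisson interval 2.74 to 3.13) and 0.01 to 0.10 TPM in the cultures. Col27a1 had 3.86 TPM in splenic B cells and 0.23 to 1.41 TPM in the cultures. The 8 fibroblast markers summed to 0.36 TPM in splenic B cells and 0.15 to 2.24 TPM in the cultures. The 5 macrophage markers in the files summed to 261 TPM in splenic B cells (C1qb 81.4 TPM) and 4.77 to 18.7 TPM in the cultures, and the 5 megakaryocyte and platelet markers to 15.6 TPM in splenic B cells and 1.67 to 3.48 TPM in the cultures. Their part in the Col14a1 and Col27a1 values was not tested. CH12, against the 7 primary B libraries, was higher in Col13a1, a transmembrane collagen of the neuromuscular junction, with 2.37 TPM against 0 to 0.01 TPM (9 collagens could meet the rule, and 6.83% of 12360 genes were higher and 3.72% lower). Among the cultures, the one labelled aCD40+IL4 had the highest level of Col6a4 (4.11 TPM), Col15a1 (4.05 TPM) and Col20a1 (6.63 TPM). LPS B had 1.76 TPM of Col6a4 and aBCD180 B 0.72 TPM, while LPS+IL4 B and LPS+IL21 B were at 0. Col15a1 was at or below 0.33 TPM in the other B libraries apart from CH12 (0.93 TPM). Col23a1 was highest among immune libraries in splenic B cells (2.90 TPM).

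Basophils met the size rule against 16 lymphocyte libraries for 0 of 14 collagens, beside 6.74% of 13263 genes higher and 3.41% lower. They had the highest immune level of Col3a1 (1.52 TPM, 183 reads), Col4a1 (0.64 TPM) and Col4a2 (0.93 TPM). In the same library the fibroblast markers summed to 290 TPM, of which Pi16 alone gave 288 TPM, while Dcn was at 0.78 and Pdgfra at 0.11 TPM.

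Among sorted CD4 T cells, Tfh, non-Tfh and Tfr libraries (6) were compared with CD4+ libraries (2) in a fit of 8 libraries with population and MUT as terms. Of 16 collagens tested 3 were higher and 5 lower by edgeR, beside 24.8% of 13064 genes called, 13.4% higher and 11.4% lower. Col11a2 was lower in the sorted activated cells, with 1.92 TPM in Tfh, 3.25 TPM in Tfh MUT, 3.94 TPM in Tfr, 3.36 TPM in Tfr MUT, 7.90 TPM in non-Tfh and 8.18 TPM in non-Tfh MUT, against 25.0 TPM in CD4+ and 18.8 TPM in CD4+ MUT. The groups did not overlap. The log2 fold change was -2.61 ± 0.19 (edgeR adjusted p = 0.000898) and the call held in all 12 alternatives. Rxrb, the gene upstream, had 68.8 to 91.5 TPM in the 6 sorted activated libraries and 94.9 and 82.8 TPM in CD4+ and CD4+ MUT.

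The other lower calls were Col7a1 (0.22 to 0.53 TPM, against 0.95 and 1.14 TPM in CD4+ libraries), Col9a3, Col20a1 and Col23a1. Their log2 fold changes were -1.79 ± 0.25 for Col7a1, -1.11 ± 0.29 for Col9a3, -0.92 ± 0.23 for Col20a1 and -0.98 ± 0.21 for Col23a1. Col1a1 was higher in the sorted activated cells, with 0.24 to 1.32 TPM, against 0.05 and 0.10 TPM in CD4+ libraries (log2 fold change 2.79 ± 0.56, edgeR adjusted p = 0.017). Its partner Col1a2 was listed at 0 in Tfh and Tfh MUT, at 0.37 TPM in Tfr and at 0.85 TPM in Tfr MUT. Without the CD4+ library 1 collagen was called, without CD4+ MUT 2, without non-Tfh or non-Tfh MUT 3 each, and without Tfh 10. Of the 8 calls, that on Col11a2 was the one that held with each library left out in turn. Col16a1 and Col24a1, the remaining higher calls, were unevenly spread over the 3 populations. Both passed the count filter through the Tfh and Tfr libraries, so they could hardly be called lower. Col24a1, for example, had 22 to 60 reads there and 0 in CD4+ and CD4+ MUT. The count of higher calls therefore follows in part from the filter.

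Col16a1 (chr4:130047817-130099277, plus strand), the FACIT gene that was also abundant in skin, was at 7.25 TPM in Tfh, 2.52 TPM in Tfh MUT, 3.88 TPM in Tfr and 5.02 TPM in Tfr MUT. It was at 0.06 TPM in non-Tfh, 0.02 TPM in non-Tfh MUT, 0.04 TPM in CD4+ and 0.01 TPM in CD4+ MUT. The Tfh and Tfr libraries, called follicular below, all lay above the others. The follicular values rest on 221 to 757 reads and the others on 1 to 8. Col5a3, a minor type V chain, was at 2.08 TPM in Tfh, 0.54 in Tfh MUT, 0.96 in Tfr and 0.71 TPM in Tfr MUT, and at most 0.02 TPM in the non-Tfh and CD4+ libraries. The ConA-activated CD4+ library had 3.35 TPM of Col5a3 (1765 reads) and 0.01 TPM of Col16a1. Col24a1, a fibrillar chain of bone, was low, at 0.58 TPM in Tfh, 0.18 in Tfh MUT, 0.31 in Tfr and 0.26 TPM in Tfr MUT. It was at 0.01 TPM in non-Tfh and at 0 in non-Tfh MUT, CD4+ and CD4+ MUT.

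Because of these values, Tfh and Tfr (4 libraries) were set against non-Tfh (2 libraries) in the same fit, a comparison chosen after the values were seen. Col16a1, Col5a3 and Col24a1 prompted it, so its p-values for these genes are not an independent test. These genes also passed the count filter through the follicular libraries. Col24a1, for example, had 22 to 60 reads there and 0 to 2 in the non-Tfh and CD4+ libraries. By edgeR 4 of 16 collagens were higher in the follicular cells and 1 lower, beside 15.9% of 13064 genes called, 8.26% higher and 7.62% lower. Col16a1 averaged 4.67 ± 2.0 TPM in follicular cells and 0.04 ± 0.028 TPM in non-Tfh cells (SD, n = 4 and 2), a log2 fold change of 6.84 ± 0.74 (edgeR adjusted p = 0.0048). The adjusted p by edgeR was 0.030 for Col5a3, 0.020 for Col24a1 and 0.044 for Col27a1. Col27a1, a fibrillar chain of cartilage, was at 0.85 TPM in Tfh, 0.44 in Tfh MUT, 5.0 in Tfr and 1.88 TPM in Tfr MUT, against 0.25 TPM in non-Tfh and 0.38 TPM in non-Tfh MUT. Col11a2 was lower in follicular cells, with 3.12 ± 0.85 TPM against 8.04 ± 0.20 TPM (edgeR adjusted p = 0.0083). The Col27a1 call was lost without Tfr or without either CD4+ library. No collagen was called when either non-Tfh library was left out, and without Tfh 10 were called.

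**Figure D5:**
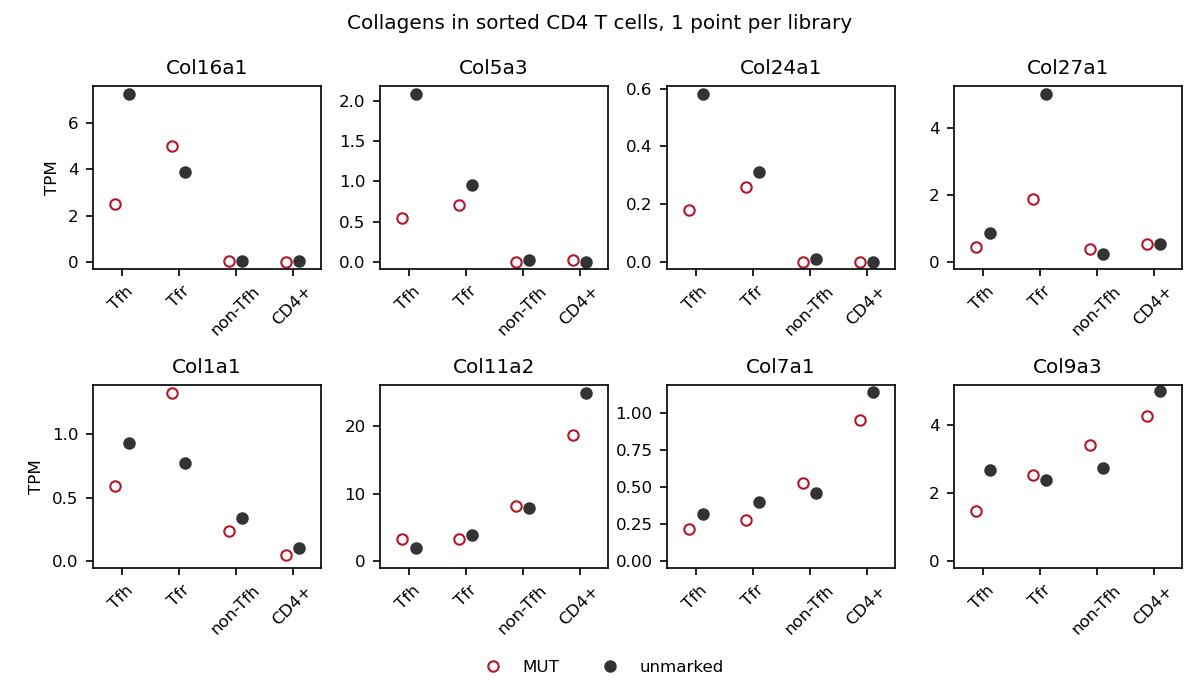
TPM of 8 collagens in the CD4 T populations, 1 point per library, with MUT libraries as open red points and unmarked ones as filled points (each panel has its own linear axis). Col16a1, Col5a3 and Col24a1 are near 0 in non-Tfh and CD4+ cells and above that in all 4 Tfh and Tfr libraries, and Col11a2 is highest in CD4+ cells.

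Markers of other cell types were read in the same 8 libraries. The 8 fibroblast markers summed to 2.11, 4.04, 2.27 and 1.21 TPM in Tfh, Tfh MUT, Tfr and Tfr MUT and to 1.93, 1.25, 2.05 and 1.22 TPM in non-Tfh, non-Tfh MUT, CD4+ and CD4+ MUT. Of these, Dcn and Lum were at 0 in all 8 libraries and Pdgfra at or below 0.01 TPM in each, while Fbln1 led in 7 of them and reached 3.31 TPM in Tfh MUT. Twist2 was at 1.06, 0.14, 0.21 and 0.43 TPM in Tfh, Tfh MUT, Tfr and Tfr MUT and at 0 in the non-Tfh and CD4+ libraries, and the part of cells with these markers in the follicular values was not tested. The collagen chaperone Serpinh1 was at or below 0.09 TPM. The 5 B-cell markers summed to 123, 641, 471 and 120 TPM in Tfh, Tfh MUT, Tfr and Tfr MUT and to 101, 110, 88.9 and 94.5 TPM in non-Tfh, non-Tfh MUT, CD4+ and CD4+ MUT, so Tfh MUT and Tfr stood above the rest. In splenic B cells, where these markers summed to 10330 TPM, Col27a1 had 3.86 TPM, Col5a3 0.91 TPM, and Col16a1 and Col24a1 were listed at 0. The part of B-cell RNA in the Col27a1 and Col5a3 values was not tested. Of other genes in the pathway, 4 of 12 basement membrane partners were higher in follicular than in non-Tfh cells by edgeR and 0 lower, beside the 8.26% and 7.62% of all genes given above. The calls of this comparison, chosen after the values were seen, all ended when non-Tfh MUT was left out (0 genes, against 2074), and 183 genes were called when the unmarked non-Tfh library was. Lamc1, a laminin chain, had 12.5 to 55.9 TPM in follicular cells and 3.33 to 3.51 TPM in non-Tfh cells, and Nid2, which links laminin to collagen IV, had 1.42 to 13.2 and 0.21 to 0.80 TPM. No collagen IV chain exceeded 0.07 TPM in the 8 libraries. Plod2, a lysyl hydroxylase, was the 1 higher call of 13 synthesis genes, with 0 lower (2.90 ± 0.58 against 0.565 ± 0.502 TPM). Of 9 collagen receptors 0 were higher and 3 lower (Itga2, Ddr1 and Lair1), and Lair1 had 0.71 to 3.32 TPM in follicular cells and 7.13 to 7.59 TPM in non-Tfh cells. Against CD4+ cells the integrin chain Itgb1 was higher in the 6 sorted activated libraries, with 160 to 598 TPM against 22.1 and 25.3 TPM, as were Itga1, Itga2 and Cd44.

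The MUT label was compared with the unmarked libraries across the 4 populations. No gene of 13064 and no collagen of 16 passed by edgeR (0.0% called, 192 genes at an unadjusted p under 0.05), DESeq2 called 2 genes and limma 0, and neither tool called a collagen. Col16a1 had 2.52 TPM in Tfh MUT against 7.25 TPM in Tfh, and 5.02 TPM in Tfr MUT against 3.88 TPM in Tfr, with a log2 fold change over all populations of -0.86 ± 0.49. In simulated data 56% of 2-fold and 85% of 4-fold changes between MUT and unmarked libraries were recovered, and 18 unchanged genes were called. The simulation had 100 changed genes among 13064, so recovery for collagens alone was not tested.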

How the data were processed

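Members and gene lists were chosen with earlier results of these data known. Per the labels, RNA was poly(A) selected and sequenced for 50 cycles. Per the file headers, the authors deposited for each gene an expected count (estimated reads, not normalized), a TPM (scaled per library, per transcript length) and an FPKM. The submitters' processing notes name CASAVA 1.8.2, STAR, RSEM, bedtools and mm10, without settings. Of the collagen expected counts above 0, 97.0% were whole (within 1e-09), and all were rounded for count models. Reads shared between genes were divided by the authors' tool, so close paralogs can be affected.

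Genes were kept by filterByExpr, scaled by TMM and tested with edgeR 4.0.16 (R 4.3.3) by the quasi-likelihood F-test, with Benjamini-Hochberg adjustment over all tested genes and a threshold of 0.05. Comparisons with a single library used a size rule on log2(TPM + 1). Regions or cell types stood in for replicates. The 4237 rows of other types, all at 0, were left out, and 8 of 235 listed genes were absent from the files. Every collagen past a test or size rule, or at 1 TPM or more in an immune library, every collagen IV chain and the 10 highest of each tissue were named, with up to 4 genes of other lists. Alternatives were RLE factors, no filter, DESeq2 1.42.0, limma 3.58.1 on log2(TPM + 1), a pseudocount of 0.1, a TPM minimum of 10, TMM-scaled FPKM and each library left out. In simulated data, 4-fold changes were recovered in 32% of cases for brain against immune cells (15927 genes), 75% for B against T cells (12437), 74% for sorted activated against CD4+ cells and 77% for follicular against non-Tfh cells (13064 each). Unchanged genes called in these simulations were 1, 5, 12 and 10, in the same order. Promoter windows are from RefSeq and exon overlaps from GENCODE M21, both on GRCm38. Poisson intervals cover counting error only. Figures used matplotlib 3.10.9, tables pandas 2.3.3 and numpy 2.4.6. A gene of the basement membrane list is not reported here by name.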

Additional observations from a re-analysis of the deposited data

How the results depend on the processing

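The labels give no replicate numbers, and the MUT comparison was made within populations, since population was a term of its fit. Of 1922 values of single collagens under alternatives, 1779 kept their side of the threshold, 125 were no longer past it and 18 became so. No value past the threshold in the main setting reversed direction. In B against CD4 T cells 10 collagens were called without the filter on low counts and 1 by limma, against 2. In sorted activated against CD4+ cells limma called 5 collagens, against 8, and leaving out each library gave 1 (without CD4+) to 10 (without Tfh) collagens. Genes called, against 3242, were 5325 without Tfh, 557 without CD4+ and 816 without its MUT library, and 1652 without non-Tfh and 1907 without its MUT library. For follicular against non-Tfh cells DESeq2 called 3599 genes, against 2074, and limma 3 collagens, against 5, while leave-one-out gave 0 to 10 collagens. Genes were 0 without non-Tfh MUT, 183 without non-Tfh, 1075 without either CD4+ library and 4942 without Tfh. For the MUT label DESeq2 called 2 genes and leave-one-out 0 to 29 (24 without Tfh, 29 without Tfh MUT). Brain against immune cells gave 24 (without medulla oblongata) to 34 collagens under leave-one-out, and 32 without the 4 libraries whose effective lengths differ (LPS+IL4 B, splenic B, CD4+ ConA and CH12). The rule between brain regions was met 9 times with a pseudocount of 0.1 and 2 times with a TPM minimum of 10, against 5. Splenic B cells had 0 at that minimum and 1 with TMM-scaled FPKM, against 2, CH12 had 0 at that minimum, against 1, and basophils had 1 with a pseudocount of 0.1, against 0. At a threshold of 5 TPM, 4 collagens were present in an immune library, against 15. The cause of these changes was not tested. A population left with a lone library was assumed to vary like the others.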
